A study of Mus musculus with 38 samples.

Results

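Base-unpairing regions (BURs) in gene deserts were described. A gene desert was taken as a gap of at least 1 Mb between neighbouring protein-coding genes of the GENCODE vM1 annotation on chromosomes 1 to 19 of the mouse genome mm9, and a BUR belonged to a desert when its midpoint lay in the gap. There were 248 deserts with a total length of 439.9 Mb, and they held 67874 of the 219828 BURs on chromosomes 1 to 19 and of the 238380 BURs in all. Positions alone chose these regions, so the binding of SATB1 and CTCF was not used in the choice. A desert lacked protein-coding genes only: 1109 annotated genes of other types had their midpoint in a desert, 357 of them pseudogenes and 37 of them lincRNAs. The desert of greatest length, between *Gm5591* and *Gm16387* on chromosome 7, was an assembly gap for 97.2% of its 7.20 Mb and held 15 BURs. Densities below are therefore per Mb of known sequence, except in the classes of distance from a flanking gene. Those are per Mb of full length. Another desert, between *Gm7112* and *Ighv1-73* on chromosome 12, held 62 immunoglobulin heavy chain variable segments, which the annotation does not class as protein-coding genes.

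The BUR map was made in vitro from purified genomic DNA of C57BL/6 thymus bound by recombinant SATB1, in 1 library. All ChIP samples came from C57BL/6 mice labelled SATB1 Wild-type, and 10 lists of peaks were used. SATB1 was mapped by urea ChIP-seq, which purifies crosslinked chromatin through urea before immunoprecipitation, with the home made antibody 1583D in brain, thymus and skin, in 2 lists each, and CTCF was mapped by the same method in 1 list of thymus and 1 of skin. Standard ChIP-seq of SATB1 in thymus gave 2 lists, with the antibody ab109122 in replicate 1 and 1583D in replicate 2. The labels give an age of 13 days for thymus and skin, and of 5 and 6 weeks for brain replicates 1 and 2, while the methods describe frontal cortex of adult mice and keratinocytes of newborn mice. The titles of standard replicate 1 and of the thymus CTCF sample give 6 weeks. The standard replicates were also sonicated for different times, 15 s and 150 s. Skin replicates were sonicated for 55 s and 60 s, and thymus urea replicates 1 and 2 received 4 µl and 2 µl of antibody. Titles of brain replicates 1 and 2 give 10 and 12 cycles, without saying of what.

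SATB1 is a nuclear protein of thymocytes and of some neurons and epidermal cells that binds double-stranded DNA with a strong tendency to unpair under negative supercoiling. Typical BURs are rich in A and T, and their bases are sorted unevenly between the strands, so that a strand runs for many bases with no G, or with no C. Gene deserts are long stretches without protein-coding genes, many of which flank genes with tightly regulated developmental expression, and they are among the A and T rich parts of the genome.

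Sequences of 4 desert BURs are shown because they differ in where SATB1 was found in vivo while all were bound strongly in vitro. Each is 300 bases of mm9 on the plus strand, centred on the in vitro summit, and capitals mark the longest stretch without G, which in each of the 4 was longer than the longest stretch without C.
Bound in all 6 urea SATB1 lists, chr2:137198436-137198735: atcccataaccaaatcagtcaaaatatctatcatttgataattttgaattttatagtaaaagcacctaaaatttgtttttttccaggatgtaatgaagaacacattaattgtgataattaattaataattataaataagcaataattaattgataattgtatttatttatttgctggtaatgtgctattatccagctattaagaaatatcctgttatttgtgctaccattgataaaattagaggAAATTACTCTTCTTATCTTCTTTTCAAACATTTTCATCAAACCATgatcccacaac
Farthest from a flanking gene among those bound in all 6 urea lists, chr1:104536499-104536798: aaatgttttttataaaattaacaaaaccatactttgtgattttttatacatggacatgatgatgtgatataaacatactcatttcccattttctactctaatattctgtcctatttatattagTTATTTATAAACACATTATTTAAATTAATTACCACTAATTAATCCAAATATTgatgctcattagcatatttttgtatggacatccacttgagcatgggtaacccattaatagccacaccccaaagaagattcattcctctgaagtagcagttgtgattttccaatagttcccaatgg
Bound in both brain lists and in no other list, chr7:143152013-143152312: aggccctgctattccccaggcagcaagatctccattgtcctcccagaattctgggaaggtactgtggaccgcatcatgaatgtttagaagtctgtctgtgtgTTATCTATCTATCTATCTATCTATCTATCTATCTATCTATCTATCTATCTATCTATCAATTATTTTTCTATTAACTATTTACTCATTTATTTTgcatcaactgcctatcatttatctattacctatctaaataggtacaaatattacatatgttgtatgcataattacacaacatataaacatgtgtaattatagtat
Bound in none of the 10 lists, chr2:9586703-9587002: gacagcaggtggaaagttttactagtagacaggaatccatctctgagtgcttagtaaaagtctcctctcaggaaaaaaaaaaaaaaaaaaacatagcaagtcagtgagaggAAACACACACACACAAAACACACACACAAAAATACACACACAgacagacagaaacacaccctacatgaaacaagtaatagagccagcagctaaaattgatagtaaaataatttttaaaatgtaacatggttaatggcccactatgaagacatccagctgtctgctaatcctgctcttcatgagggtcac

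The first BUR lies 256.2 kb beyond *Jag1*, which encodes a Notch ligand, in the desert before *Btbd3*. Its in vitro fold enrichment over the local background was 21.9, and the peaks over it had fold enrichments of 26.5 and 26.8 in brain, 27.4 and 25.5 in thymus and 16.4 and 16.1 in skin. The second lies in the middle of the desert between *Cntnap5b*, which encodes a neuronal membrane protein, and *Cdh20*, a cadherin gene, 2154.1 kb from one and 2128.5 kb from the other. Its in vitro fold enrichment was lower, 11.4, but its peaks in brain, at 23.0 and 22.8, and in thymus, at 25.8 and 26.3, were nearly as high as those of the first BUR, whereas those in skin had fold enrichments of 7.96 and 7.19. The third BUR lies 244.1 kb from *Mki67*, a gene expressed in dividing cells, and 934.1 kb from *Mgmt*, a DNA repair gene. Bound in vitro at 21.0-fold, it had peaks of 8.44 and 4.20 in the brain lists, and its capitals hold a repeat of TATC. The fourth, at 29.6-fold the most strongly bound in vitro of the 4, had no peak in any ChIP list and lies 191.9 kb from *Gata3*, which encodes a T cell transcription factor, in the desert that begins at *Celf2*. It holds repeats of CA. None of the 4 lay in an annotated gene of any type.

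Base composition did not separate the desert BURs that were bound from those that were not. The median A+T content was 70.5% for the 1714 desert BURs overlapped by a peak in all 6 urea SATB1 lists and 70.8% for the 37123 overlapped in none of the 10 lists, and the median of the longest stretch without C or without G was 43 and 42 bp. In vitro strength differed more, with a median fold enrichment of 9.12 for the former and 4.73 for the latter, and so did length, with medians of 528 and 408 bp. These are descriptions over regions, which are no replicates of a condition. The 8-base motif AATTAATT, which reads the same on both strands and was noticed in the first 2 sequences above, was searched in the 300 bases around each in vitro summit. It was present in 23.9% of the desert BURs bound in all 6 urea lists, in 10.3% of those bound in both brain lists and no other urea list, and in 6.39% of those bound in none of the 10 lists. Over all BURs of chromosomes 1 to 19 the share was 8.34%, and over windows of the same length midway between neighbouring desert BURs at least 2000 bp apart it was 1.72%. Those windows were poorer in A and T, with a median of 62.0% against 70.8% for whole desert BURs, and were not matched for it. The difference between bound and unbound desert BURs was present in each of 3 classes of in vitro fold enrichment, from weak to strong, with 15.4%, 21.2% and 25.2% of the BURs in all 6 lists against 6.59%, 6.64% and 5.71% of those in none. Outside the deserts the shares were 28.1% for BURs of all 6 urea lists and 5.38% for BURs of none of the 10 lists. The motif AATATATT, a sequence known from the unwinding core of a BUR of the immunoglobulin heavy chain gene, did not follow the same order. It was present in 9.16% of the desert BURs in all 6 urea lists, in 10.4% of those in none, in 9.30% of all BURs and in 2.26% of the windows between desert BURs. Matches of one motif cannot overlap those of the other, a window was counted once however many matches it held, and a match describes letters and not a site of binding.

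BURs were denser in the deserts than elsewhere on the same chromosomes. The deserts made up 17.8% of the known sequence of chromosomes 1 to 19 and held 30.9% of its BURs, 159.2 BURs per Mb against 77.2 per Mb elsewhere, a ratio of 2.06. The map has 1 library, so this ratio carries no error. The median distance between neighbouring BUR midpoints was 4322 bp in the deserts and 6767 bp elsewhere. Deserts had an A+T content of 61.6% against 57.3% elsewhere. The desert BURs themselves were close in composition to the other BURs, with medians of 70.8% and 70.5% A+T and of 443 and 439 bp in length, but were weaker in vitro, with a median fold enrichment of 5.49 and quartiles of 4.00 and 7.97, against 6.20 with quartiles of 4.35 and 9.42. Single deserts held between 14 and 930 BURs with a median of 225, and between 36.4 and 254.0 BURs per Mb with a median of 153.5. Over the 242 deserts with at least 50 BURs, BURs per Mb followed the A+T content of the desert with a Spearman correlation of 0.973. This is given as a description, since BURs are themselves rich in A and T. The part of base composition in BUR density was not tested.

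In brain, SATB1 occupied more of the BURs in deserts than of the BURs elsewhere. Replicate 1 had a peak at 41.6% of the desert BURs and at 35.5% of the others, and replicate 2 at 38.4% and 32.7%, a mean of 40.0% ± 2.24 against 34.1% ± 1.99 (SD, n = 2). Over all BURs of chromosomes 1 to 19 the shares were 37.4% and 34.5%. Both brain lists were higher in the deserts, by factors of 1.171 and 1.175. In thymus the difference was smaller. Replicate 1 had a peak at 15.5% of the desert BURs and 14.2% of the others, and replicate 2 at 13.3% and 12.7%, with 14.6% and 12.9% over all BURs. The thymus ratios were 1.089 and 1.046, both above 1 but apart from each other by nearly as much as the lower of them was from 1. With at least 50% of the BUR covered by a peak, the mean log2 ratio in thymus was -0.003 ± 0.05 (SD, n = 2). In skin the direction was opposite, with 3.19% of the desert BURs against 3.89% of the others in replicate 1 and 3.14% against 3.82% in replicate 2, where the shares over all BURs were 3.68% and 3.61%. The skin ratios were 0.818 and 0.821, so both skin lists lay below and the 4 other urea lists above 1.

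**Figure D1:**
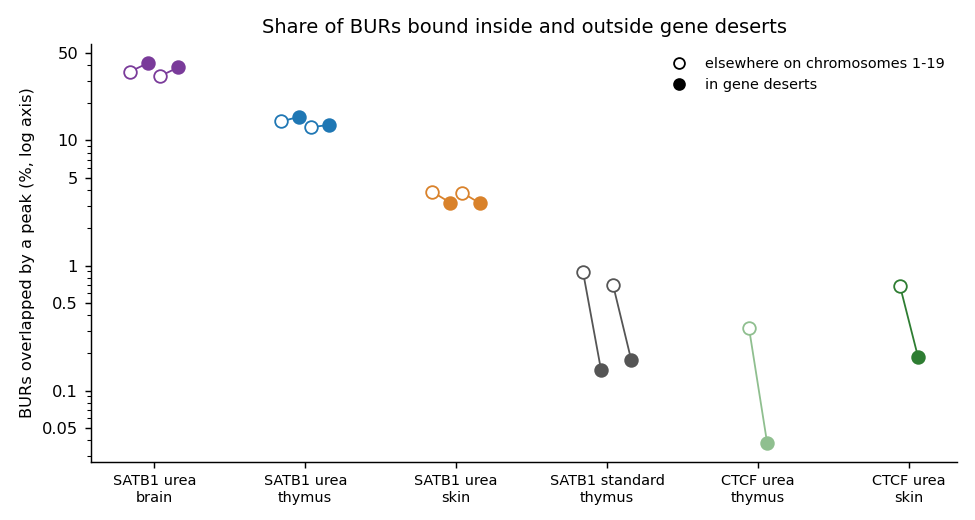
Percentage of BURs overlapped by a peak (log axis) in each of the 10 ChIP lists, for BURs in gene deserts (filled circles) and elsewhere on chromosomes 1 to 19 (open circles), with 1 pair of circles for each list. The brain and thymus urea pairs rise and the skin urea pairs fall slightly, to ratios between 0.818 and 1.175, whereas the standard SATB1 and CTCF pairs fall to 0.121 to 0.269 of the level elsewhere.

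Across the 6 urea lists together no difference between deserts and the rest was detected. The mean log2 ratio of the share bound in deserts to that elsewhere was 0.01, positive in 4 of 6 lists, and an exact two-sided sign-flip permutation test over the lists gave p = 0.844 (0.844 after Benjamini-Hochberg adjustment over 3 such tests), with 0.031 the smallest p that 6 lists allow. By tissue, the mean log2 ratio was 0.23 ± 0.003 in brain, 0.09 ± 0.04 in thymus and -0.29 ± 0.004 in skin (SD, n = 2). The difference between tissues was larger than the spread of the replicates. An exact permutation test over the 15 ways to pair the lists gave p = 0.0667, the smallest p it can give, so that this design cannot pass 0.05. The order of skin, thymus and brain in the share of desert BURs bound was compared with all 90 arrangements of the lists by the Jonckheere-Terpstra statistic (exact permutation test, one-sided, p = 0.0111, the smallest possible). That order was already known for all BURs, so the p is no independent support. The lists differed in size, from 10846 peaks in skin replicate 2 to 117963 in brain replicate 1. The files give no depth, and the study describes the aligned reads of the urea samples as similar in number. With every list cut to its 10846 peaks of highest −log10 q, the mean log2 ratio was 0.38 in brain, -0.06 in thymus and -0.29 in skin, so the brain ratio became larger and the thymus ratio changed sign.

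These ratios depended on how in vitro strength was weighted. All BURs of chromosomes 1 to 19 were divided into 10 classes of about equal size by in vitro fold enrichment, and in each class brain and thymus SATB1 had a higher mean share of desert BURs than of other BURs. In class 1, the weakest, up to a fold enrichment of 3.48, brain peaks lay on 19.6% of the desert BURs and 18.0% of the others, and thymus peaks on 3.54% and 3.34%. In class 9, from 9.82 to 12.4, the values were 57.8% and 43.3% for brain and 29.4% and 22.0% for thymus. The excess in the deserts was thus largest among strongly bound BURs, at log2 ratios in class 8 of 0.42 for brain and 0.44 for thymus, and smaller again in class 10, at 0.31 and 0.22. Skin differed in that its deserts were higher in 5 classes and lower in the other 5, with 6.11% against 4.92% in class 8 and 10.8% against 12.1% in class 10. With shares averaged over the classes and weighted as the desert BURs were, all 6 urea lists were higher in the deserts, with a mean log2 ratio of 0.23 (exact sign-flip permutation test over 6 lists, p = 0.0313, adjusted p = 0.0469). The test counts lists of the same tissue as independent, although their values lay close together, so this p does not measure the spread between tissues. Under that weighting the mean of the skin lists was 0.07 ± 0.004 (SD, n = 2) and therefore had the opposite sign from its value without it, and the brain and thymus means were 0.31 ± 0.005 and 0.31 ± 0.02. Averaging over 10 classes of A+T content left the mean log2 ratio over the 6 lists at 0.01.

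**Figure D2:**
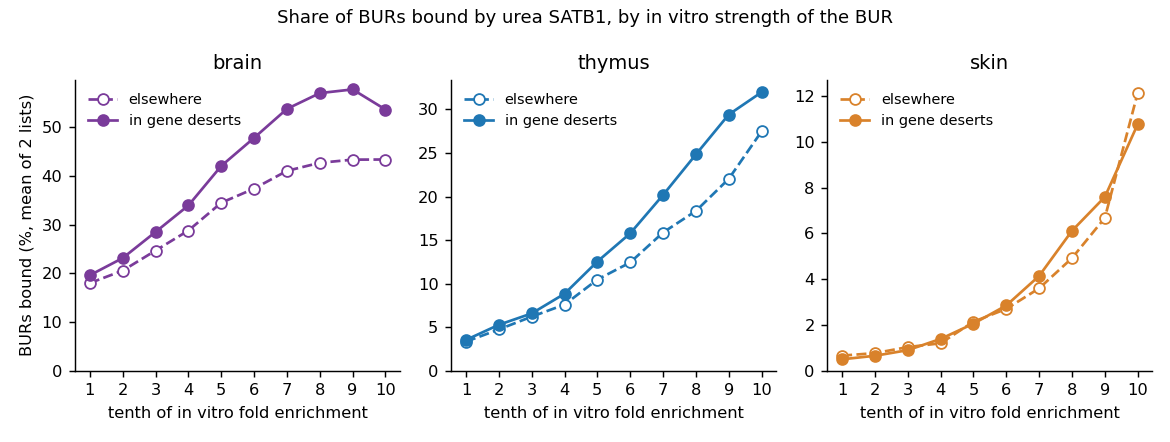
Percentage of BURs bound by urea SATB1 (mean of 2 lists) in 10 classes of in vitro fold enrichment (1, weakest, to 10), in brain, thymus and skin, for desert BURs (filled circles, solid line) and the others (open circles, dashed line). The desert line is above the other in all 10 classes for brain and thymus and crosses it for skin.

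BURs bound in thymus or skin were mostly also bound in brain, in the deserts as elsewhere. Of the 7969 desert BURs bound in both thymus urea lists, 98.0% were bound in both brain lists, and of the 1811 bound in both skin lists, 95.3% were. The values elsewhere were 97.9% and 93.4%. In the other direction the deserts shared less. Of the 23996 desert BURs bound in both brain lists, 32.6% were bound in both thymus lists and 7.19% in both skin lists, against 36.3% and 10.2% elsewhere. Peaks of all 6 urea lists covered 1714 desert BURs, or 2.53%, against 3.01% elsewhere and 2.86% of all BURs. Both brain lists and no other urea list had a peak at 13027 desert BURs, or 19.2%, against 15.0% elsewhere and 16.3% of all BURs. The reverse pattern was rare. Both thymus lists and no brain list had a peak at 47 desert BURs, or 0.0692%, against 0.0474% elsewhere and 0.0541% of all BURs. Both skin lists and no brain list had one at 59 desert BURs, or 0.0869%, against 0.158% elsewhere and 0.136% of all BURs. No urea SATB1 list had a peak at 54.9% of the desert BURs and at 61.2% of the others, with 59.3% of all BURs, and none of the 10 ChIP lists had one at 54.7% and 60.1%, with 58.4% of all BURs. These shares were read from lists of different size, and a BUR without a peak was not detected at the depth and threshold of its list.

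Most desert BURs bound in a urea SATB1 list were bound in the other replicate list too. Brain replicate 1 shared 85.0% of its 28238 bound desert BURs with replicate 2, which shared 92.0% of its 26085. For thymus these shares were 76.0% of 10487 and 88.1% of 9046, and for skin 83.8% of 2162 and 85.1% of 2128. The standard lists, which differed in antibody and sonication time, had 99 and 119 bound desert BURs and shared 34 of them. These overlaps were computed for desert BURs only, so they are not set against those of other BURs.

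Standard ChIP-seq of SATB1 in thymus placed few peaks on desert BURs. Its lists covered 0.146% and 0.175% of the desert BURs and 0.896% and 0.694% of the others, with 0.664% and 0.534% over all BURs. The log2 ratio of deserts to elsewhere was -2.62 and -1.99, a mean of -2.30 ± 0.45 (SD, n = 2), against 0.12 and 0.06 in the 2 urea lists of thymus. The difference between the methods was 2.40 on the log2 scale, and all urea values lay above all standard values. An exact two-sided permutation test of 2 lists against 2 cannot give less than its p of 0.333, and antibody, sonication and possibly age differed between the standard lists and partly between the methods. The same held for all peaks regardless of BURs. Summits of urea SATB1 peaks in thymus fell in deserts at 29.6 and 25.0 per Mb, 1.955 and 1.894 times the density elsewhere, while those of standard peaks fell there at 2.99 and 1.85 per Mb, 0.130 and 0.143 times. Of the urea thymus peaks in deserts, 83.5% and 85.1% overlapped a BUR. Of the standard peaks in deserts, 8.47% and 15.3% did. Brain had 82.8 and 76.9 urea SATB1 peaks per Mb of desert and skin 5.83 and 5.68, which was 2.111 and 2.117 times and 1.469 and 1.478 times the density elsewhere.

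The standard SATB1 peaks that did fall in deserts were spread over 225 and 208 of the 248 deserts, unevenly. The 6 deserts with the most peaks, ranked by the lower of the 2 lists and named here after their values were seen, held 23.5% and 21.0% of all standard peaks in deserts along with 1.16% of the urea thymus peaks in either replicate and 1.01% of the desert BURs. As these deserts were chosen by their standard peaks, the contrast is a description. First came the desert with the immunoglobulin variable segments, with 86 and 42 standard peaks, of which 78 and 42 did not overlap a BUR. Its BURs were bound at 22.2% and 20.5% in brain and 8.77% and 7.60% in thymus by urea ChIP-seq, below the medians over deserts. The others lay between *Vrk1* and *3110018I06Rik* (51 and 35 standard peaks), *Myc* and *Gsdmc* (54 and 32), *Id2* and *Rnf144a* (37 and 21), *Sall3* and *Galr1* (42 and 18), and *Tox* and *Car8* (29 and 18). *Myc*, *Id2* and *Tox* encode regulators of transcription that act in developing lymphocytes, and *Sall3* encodes a zinc finger transcription factor. Functions are given for some of these genes only, as background. Regulators of lymphocytes were not counted among all flanking genes, so no link with them was tested. Over the 242 deserts with at least 50 BURs, standard peaks per Mb had a Spearman correlation with BURs per Mb of -0.38, whereas urea thymus peaks per Mb had one of 0.91. Both are descriptions over deserts that share libraries and base composition.

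CTCF, a zinc finger protein found at chromatin domain borders, was rare at desert BURs. The thymus list had a peak at 26 desert BURs, 0.0383% against 0.317% elsewhere and 0.231% of all BURs, and the skin list at 126, 0.186% against 0.689% elsewhere and 0.534% of all BURs. The log2 ratios were -3.05 and -1.89, with 1 list each and so no error. Like the standard SATB1 peaks, CTCF peaks were sparse in deserts in general, at 0.774 per Mb in thymus and 3.05 per Mb in skin, 0.0783 and 0.207 times the density elsewhere.

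Where urea SATB1 peaks lay on desert BURs, they were slightly weaker than on other BURs. The median fold enrichment of peaks on desert BURs was 8.02 and 8.07 in brain, against 8.34 and 8.53 on other BURs. It was 8.06 and 8.16 against 8.54 and 8.60 in thymus and 8.38 and 7.98 against 8.80 and 8.39 in skin. The log2 ratio was below 0 in 6 of 6 lists, between -0.08 and -0.06 with a mean of -0.07 (exact sign-flip permutation test, p = 0.0313, the smallest possible; adjusted p = 0.0938). It did not pass 0.05 after adjustment over the 3 tests. The desert BURs were also the weaker ones in vitro.

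Over the deserts pooled, BURs were denser, and a larger share of them was bound in brain and thymus, farther from the flanking genes. There were 123.2 BURs per Mb within 50 kb of a flanking gene, 147.0 per Mb from 250 to 500 kb and 182.2 per Mb beyond 1000 kb, where only deserts of over 2 Mb can contribute. These 3 densities are per Mb of full desert length, with unknown bases counted. Long deserts also had more BURs per Mb and higher brain shares, with Spearman correlations with known length of 0.45 and 0.42 over the 242 deserts, given as descriptions. Inside single deserts, the parts beyond 100 kb were denser than the ends in 186 of the 226 deserts without unknown bases, with medians of 161.8 and 125.0 BURs per Mb. In brain the share bound rose from 38.9% and 36.2% within 50 kb to 42.3% and 39.3% from 500 to 1000 kb and to 44.8% and 41.0% beyond. Thymus went from 14.5% and 12.5% to 15.8% and 13.5% and to 16.6% and 14.4% in the same classes. Skin had 3.14% and 3.08% within 50 kb and 3.41% and 3.20% beyond 1000 kb, with no steady direction between. Comparing the 6105 desert BURs within 100 kb of a flanking gene with the 61769 farther away, the log2 ratio of the shares bound was -0.11 and -0.09 in brain, -0.08 and -0.07 in thymus and 0.004 and -0.01 in skin. The mean was -0.06, negative in 5 of 6 lists, and did not pass the threshold (exact sign-flip permutation test, p = 0.0625, adjusted p = 0.0938). By the same test the adjusted p was 0.516 with 50% of the BUR covered and 0.469 with a border of 250 kb. It was 0.188 with peaks of −log10 q of at least 5 and 0.141 with lists of equal size. With the peak summit required to lie inside the BUR, with gaps of at least 2 Mb, with gaps free of any annotated gene or with a border of 50 kb, the adjusted p was 0.0469, at mean log2 ratios between -0.14 and -0.07. It was also 0.0469, at a mean of -0.07 and negative in 6 of 6 lists, with ends and interior compared within the same 246 deserts, an alternative added after seeing the data, where brain had 38.8% and 36.2% at the ends and 41.0% and 37.8% inside. In vitro fold enrichment went the other way, with a median of 5.76 within 50 kb and 5.26 beyond 1000 kb. CTCF peaks were more frequent near the genes. The thymus list had them at 10 of the BURs within 100 kb of a flanking gene (0.164%) and at 16 of those farther away (0.0259%), and the skin list at 26 (0.426%) and 100 (0.162%), in 1 list each. The standard SATB1 lists had 0.262% and 0.278% near the genes and 0.134% and 0.165% farther away.

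**Figure D3:**
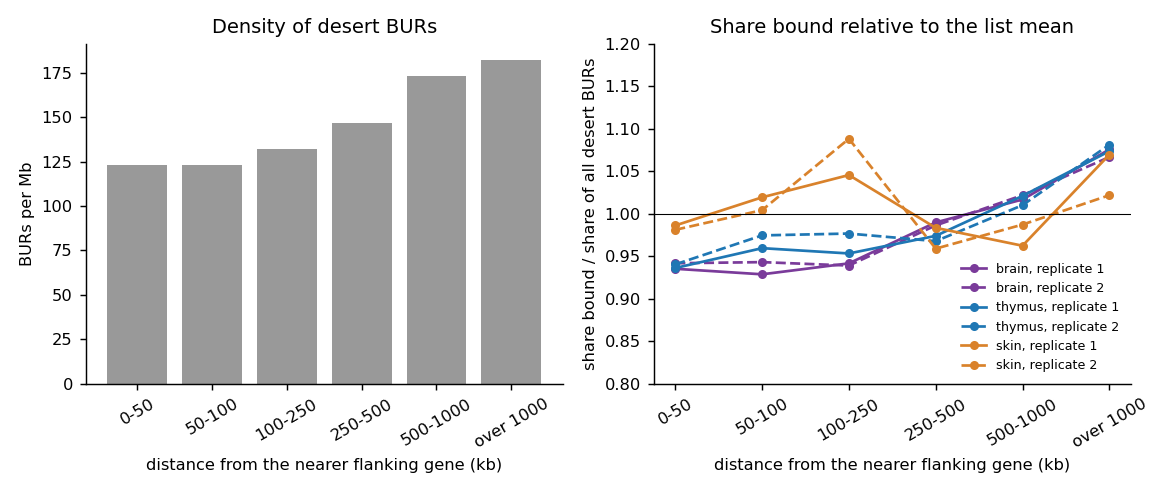
Desert BURs by distance from the nearer flanking protein-coding gene (kb, 6 classes). The left panel gives BURs per Mb of full desert length, unknown bases counted, from 123.2 in the nearest class to 182.2 in the farthest. The right panel gives the share of BURs bound in each urea SATB1 list divided by that list's share over all desert BURs, with brain and thymus below 1 near the genes and above 1 beyond 500 kb.

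Single deserts varied in how much SATB1 they held, and brain was above thymus and skin in 240 of the 242 with at least 50 BURs. Over these deserts, the mean share of BURs bound in the 2 brain lists had a median of 39.2% with quartiles of 35.6% and 42.2%. Thymus had a median of 14.1% with quartiles of 12.5% and 15.6%, and skin 3.15% with quartiles of 2.56% and 3.87%. In both brain lists 185 of these deserts were above the share of BURs elsewhere and 41 below. For thymus the numbers were 117 and 72, and for skin 48 and 164. The shares of the 2 replicates followed each other across deserts, with Spearman correlations of 0.90 in brain, 0.79 in thymus and 0.81 in skin. Brain and thymus correlated at 0.60, thymus and skin at 0.33, and brain and skin at 0.02. The brain share also followed the A+T content of the desert, at 0.73, the thymus share less so, at 0.36, and the skin share was slightly negative, at -0.17. These correlations are over deserts of the same libraries and are descriptions.

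**Figure D4:**
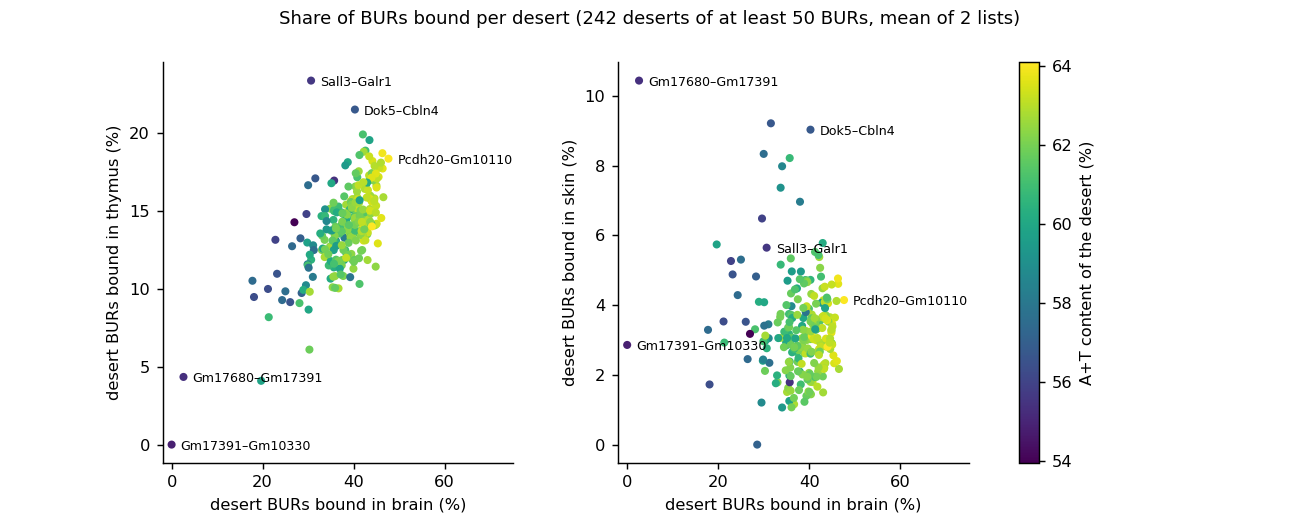
Percentage of BURs bound in thymus (left) and skin (right) against brain for each of the 242 deserts with at least 50 BURs, means of 2 urea SATB1 lists, coloured by the A+T content of the desert. Most deserts lie between 30% and 48% in brain, and the desert *Gm17680*–*Gm17391* has the highest skin share, 10.4%, at a brain share of 2.61%.

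Of the 6 longest deserts, 3 had a gene of cell adhesion at an end, a protocadherin, a cadherin or a contactin-associated protein gene. After the desert in the assembly gap, the longest was the 4.52 Mb between *Celf4*, a neuronal RNA-binding protein gene, and *Pik3c3*, a lipid kinase gene, on chromosome 18. Its 586 BURs were bound at 36.9% and 35.0% in brain, 10.4% and 9.73% in thymus and 1.88% and 2.05% in skin, below the median desert in each tissue. The 4.42 Mb from *Olfm4*, which encodes a secreted glycoprotein, to the protocadherin gene *Pcdh17* on chromosome 14 (80422668 to 84843369) held 930 BURs, more than any other desert. Of these, 48.0% and 42.3% were bound in brain, 18.8% and 15.4% in thymus and 3.33% and 3.44% in skin, while the standard lists covered 0 and 1 of them and CTCF 0 in thymus and 3 in skin. Its 44 full windows of 100 kb held between 3 and 34 BURs each, and all 44 had at least 1 BUR bound in brain and in thymus, while 16 had none bound in skin. On chromosome 1, the deserts *Cntnap5b*–*Cdh20* (4.28 Mb, 574 BURs) and *Dsel*–*Cntnap5a* (3.82 Mb, 529 BURs) had brain shares of 35.5% and 31.7% and of 41.8% and 38.9%. The 3.99 Mb between *4930555F03Rik* and *Aga*, a lysosomal enzyme gene on chromosome 8, held 896 BURs, 46.1% and 44.0% of them bound in brain.

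**Figure D5:**
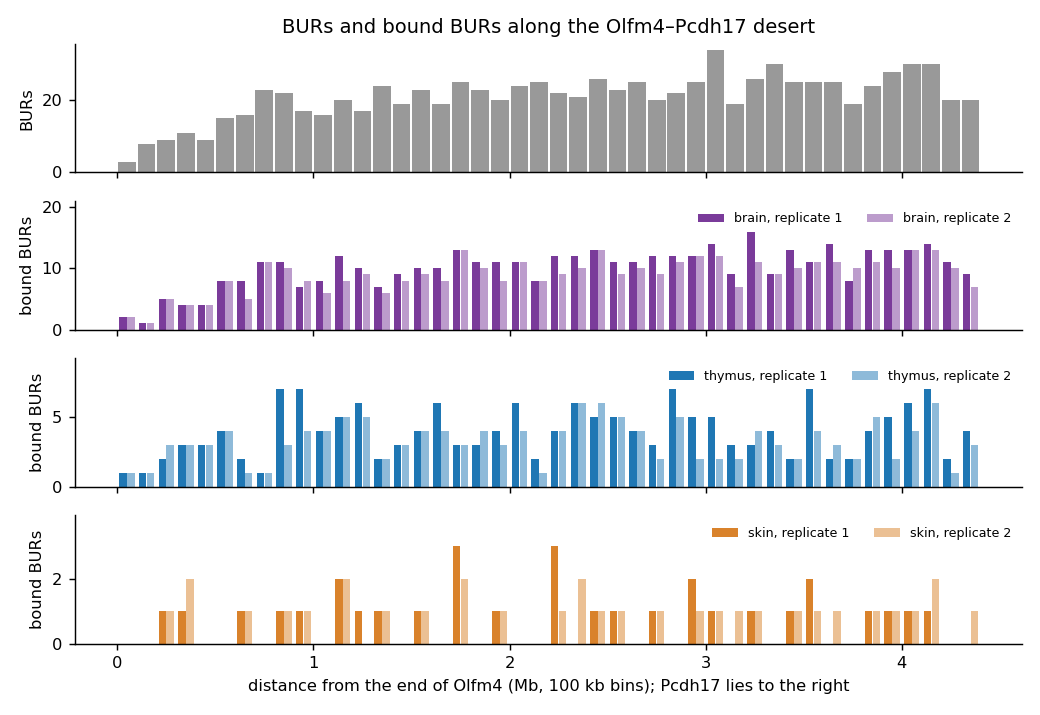
Number of BURs (grey) and of BURs bound by urea SATB1 in each replicate of brain, thymus and skin along the desert between *Olfm4* and *Pcdh17*, in windows of 100 kb by distance from the end of *Olfm4* (Mb). Brain and thymus have bound BURs in all 44 windows, and 16 windows have none in skin.

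The deserts with the highest brain shares were rich in BURs and lay beside cadherin genes or gene models. They were *Pcdh20*–*Gm10110* on chromosome 14 (49.2% and 46.1% of 362 BURs), *Cdh10*–*Acot10* on chromosome 15 (46.8% and 46.2% of 346) and *Gm11161*–*Gm597* on chromosome 1 (46.9% and 45.8% of 358). *Pcdh20*–*Gm10110* also had the most BURs per Mb, 254.0, followed by *Pcdh9*–*4921530L21Rik* with 241.9, where 41.3% and 39.8% were bound in brain. Among deserts with at least 50 BURs, the fewest BURs per Mb were in *Vrk1*–*3110018I06Rik* with 44.6 and *Plekhb2*–*Hs6st1* with 45.4. Their BURs were strong in vitro, with median fold enrichments of 9.06 and 9.86 where the median desert had 5.60. Brain shares were 31.7% and 22.2% in the first and 31.5% and 27.8% in the second. Over the 242 deserts with at least 50 BURs, brain share fell as the desert's median in vitro fold enrichment rose, at a Spearman correlation of -0.55. The correlation was -0.23 for thymus share, 0.22 for skin share and -0.82 for the A+T content of the desert, all given as descriptions.

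The deserts with the highest thymus shares, named below, held fewer BURs, and fewer per Mb, than the median desert. They are extremes with small numbers of BURs and do not describe a trend. Over the 242 deserts with at least 50 BURs, thymus share rose with BURs per Mb, at a Spearman correlation of 0.36. In *Sall3*–*Galr1* on chromosome 18, 24.2% and 22.6% of 62 BURs were bound in thymus, against 30.6% in each brain list. *Galr1* encodes a galanin receptor. *Dok5*–*Cbln4* on chromosome 2 had 23.6% and 19.4% of 72 BURs bound in thymus, 43.1% and 37.5% in brain and 8.33% and 9.72% in skin. *Cbln4* encodes a secreted synaptic protein. *Rps19-ps13*–*Prelid2* on chromosome 18 had 21.0% and 18.8% of 138 BURs bound in thymus and 42.0% in each brain list.

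A pair of neighbouring deserts on chromosome 12, on either side of the gene model *Gm17391*, had the lowest brain shares of the 242 deserts with at least 50 BURs. Between *Gm17391* and *Gm10330* (23378189 to 24463776), 0 of 70 BURs were bound in any brain or thymus urea list, which allows a share of up to 4.29% for counting error alone, and 2 were bound in both skin lists. Between *Gm17680* and *Gm17391* (21834748 to 23377852), 2 and 4 of 115 BURs were bound in brain, 4 and 6 in thymus and 12 in each skin list, the same 12 BURs in both. This is 10.4% in skin, the highest share of the 242 deserts, and these were the only 2 of the 242 in which skin exceeded brain. Among the 6 deserts with fewer BURs, *Gm5591*–*Gm16387* was also at 0 in brain and thymus, and *C130026I21Rik*–*Sp110*, with means of 5.88% in brain and 11.8% in skin of 17 BURs, and *Gm15319*–*Gm15056*, with 14.3% and 21.4% of 14, also had skin above brain. All 3 are mostly unknown sequence. The BURs of both deserts were strong in vitro, with median fold enrichments of 7.59 and 7.68. Each of the 2 holds 100000 unknown bases, and all lists were restricted by the authors to uniquely mapped reads. The part of mappability in these values was not tested. Next lowest in brain was *Adra2a*–*Gpam* on chromosome 19, between an adrenergic receptor gene and a gene of lipid synthesis, with 18.4% and 17.1% of 76 BURs, and with 10.5% in each thymus list.

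The genes at the ends of the deserts included many with symbols of adhesion gene families. The 248 deserts had 467 different flanking genes, 29 of which flanked 2 deserts. Their median length was 49.1 kb against 15.5 kb for all 21418 protein-coding genes of these chromosomes, and 10.3% were at least 500 kb long against 0.878%. Symbols of 96 of them were those of predicted or Riken genes. Cadherins and protocadherins, calcium-dependent adhesion proteins, were 16 of the 467, or 3.43%, against 0.294% of all protein-coding genes. They were *Cdh2*, *Cdh5* to *Cdh11* without a gap in the numbering, *Cdh18*, *Cdh20* and 6 *Pcdh* genes. Genes of synaptic and axon guidance adhesion were 35, or 7.49% against 0.696%, among them *Robo1* and *Robo2*, receptors of axon guidance, *Slitrk1*, *Slitrk5* and *Slitrk6*, *Nlgn1*, *Lsamp*, *Negr1*, *Epha4* and *Efna5*. They were matched by symbol, and the matches include *Fat1*, *Fat4*, *Nrg3* and *Tmem132c*, whose place in this group was not checked. Developmental transcription factors were 15, or 3.21% against 1.21%, with *Sox2*, *Sox11*, *Nr2f1*, *Nr2f2*, *Gata3* and *Bcl11a*, and 1 member matched by its symbol, *Runx1t1*, encodes a corepressor and not a Runx factor. Ion channels and transmitter receptors were 15, or 3.21% against 1.08%, such as *Gabrg1*, *Grik2* and *Kcnd2*. No olfactory or vomeronasal receptor, 6.69% of all genes, and no gene of the T cell list, 1.13% of all genes, flanked a desert by its symbol, while the epidermal list had *Dsc3* and *Serpinb8* and the growth factor list *Igfbp3* and *Igfbp7*, which encode binding proteins and not growth factors. *Gata3* and *Tox*, which act in T cells, were not in the T cell list. These are counts without a test, and gene length, which is itself greater beside deserts, was not matched.

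Shares of BURs bound are given here for deserts beside the larger groups. Over all desert BURs the mean shares were 40.0% in brain, 14.4% in thymus and 3.16% in skin. Deserts flanked by a cadherin gene held 9856 BURs in 20 deserts, with mean shares of 42.6% in brain, 15.5% in thymus and 3.33% in skin. The 41 deserts beside synaptic and guidance genes had 39.9%, 14.8% and 3.23%, and the 15 beside ion channels and receptors 40.0%, 14.8% and 3.17%. The 15 deserts beside developmental transcription factors were lower in brain, at 35.2% of 2499 BURs, where BURs outside deserts had 34.1%. They had 13.4% in thymus and 3.18% in skin. Differences between the groups were not tested. From a flanking gene, the nearest BUR lay at a median distance of 5.89 kb. The nearest BUR bound in both lists of a tissue lay, where the desert had one, at a median of 18.3 kb for brain, 52.0 kb for thymus and 203.2 kb for skin, and within 10 kb at 160, 71 and 15 of the 496 desert ends. Desert BURs bound in both lists numbered 23996 in brain, 7969 in thymus and 1811 in skin. The distances were not compared with those of equal numbers of BURs, so they do not show placement relative to genes.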

How the data were processed

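The peak lists of 11 samples, the BUR map and 10 ChIP-seq lists, were analysed. The authors mapped reads to mm9 with Bowtie2 2.3.1, keeping unique matches, and called peaks per sample with MACS2 2.2.7, as the methods and the submitters' processing notes state. Each deposited list gives a display score, the fold enrichment as a ratio to local background, and −log10 p-values and −log10 q-values of each peak; the score and the p-values were not used. Fold enrichment is not scaled between lists. The files give no counts or depth, so counting error could not be computed, and precision is the spread of 2 replicate lists. The p-values measure only the spread between these lists, which may be technical. The sign-flip tests count the 2 replicate lists of a tissue as independent units.

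Gaps between protein-coding genes were taken from GENCODE vM1 (NCBIM37), sequence from the same assembly. A BUR was bound when a peak shared at least 1 bp with it. Shares in deserts were compared with those of the other BURs of chromosomes 1 to 19 within each list by exact permutation tests over lists, adjusted by Benjamini-Hochberg over 3 tests, at 0.05. The thymus urea replicate numbers are those of the labels. Deserts named were the 6 longest, the 3 with the highest and the 3 with the lowest brain share, the 3 with the highest thymus share, and the 2 with the most and the 2 with the fewest BURs per Mb, each but the first among deserts with at least 50 BURs. BURs shown were those of highest in vitro fold enrichment in 3 binding classes and the one farthest from a gene, leaving out chromosome 18 and the 57 regions common to all 11 lists. The measures were checked on simulated lists. Deserts, lists of flanking genes and tests were chosen with earlier results of these data known. Python 3.11.15, numpy 2.4.6, pandas 2.3.3, scipy 1.17.1, pysam 0.24.0 and matplotlib 3.10.9 were used. Inputs, *Satb1*-/- samples, Hi-C and 4C were not analysed here.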

Additional observations from a re-analysis of the deposited data

Results flagged for a closer look

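The desert to elsewhere ratio of BURs bound differed in direction between tissues: both brain lists and both thymus urea lists were above 1 and both skin lists below it. The difference of the mean log2 ratios was 0.52 between brain and skin and 0.38 between thymus and skin. The single differences were not tested, and the exact permutation test over all tissues cannot pass 0.05 with 6 lists. The skin lists moved above 1 when BURs were weighted by in vitro strength, and the thymus lists fell below 1 on average with lists of equal size (mean log2 ratio -0.06) and, by less than their spread, with 50% of the BUR covered (-0.003).

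In thymus, both urea lists were above 1 and both standard lists below it, a difference of 2.40 on the log2 scale. It was tested with 2 lists against 2, where no p under 0.333 is possible.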

How the results depend on the processing

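The mean log2 ratio of desert to elsewhere over the 6 urea lists was near 0 and changed sign with small changes. It was -0.0575 with 50% of the BUR covered and -0.0007986 as a mean over deserts with at least 20 BURs, and ranged from -0.0317 to 0.0727 with 1 list left out, below 0 without brain replicate 1 (-0.0308), brain replicate 2 (-0.0317) or thymus replicate 1 (-0.00985). Averaging over 10 classes of in vitro fold enrichment gave 0.23 and passed the threshold, with lists of the same tissue counted as independent. The thymus mean was -0.003 with 50% of the BUR covered and -0.0614 with lists of equal size. The border to interior ratio, with an adjusted p of 0.0938, passed it at 0.0469 with the summit inside the BUR (-0.077), gaps of at least 2 Mb (-0.137), gaps without a gene of any type (-0.113), a border of 50 kb (-0.0723) and, both added after seeing the data, without deserts of under 1 Mb of known sequence (-0.0708) and with border and interior compared within the same deserts (-0.067). It ranged from -0.0741 to -0.051 with 1 list left out. The fold enrichment ratio, -0.07 in the report, kept its p of 0.0313 (exact sign-flip permutation test) in the alternatives with all 6 lists. It passed at an adjusted 0.0469 where the border test had a lower p, with the summit inside the BUR (-0.0775), gaps of at least 2 Mb (-0.0766), gaps without any gene (-0.0586) and without the deserts of little known sequence (-0.0737). With 1 list left out it ranged from -0.0767 to -0.071, and the p of the same test was 0.0625 each time. The order of the tissues held in every setting, with p-values from 0.0111 to 0.0333 (the latter with 1 list left out). With a replicate block, permutation within replicate numbers, its p was 0.0278. The replicate numbers do not pair the lists: over deserts, the differences between replicates correlated at 0.12 for brain and thymus, -0.13 for brain and skin and 0.07 for thymus and skin. Sign flips made together by number were not run, as 2 numbers cannot reach 0.05. The urea minus standard difference ranged from 2.08 to 2.71 with 1 list left out and kept its direction in every alternative, as did both CTCF ratios and the difference between tissues, whose p was 0.2 over classes of in vitro fold enrichment and 0.0667 otherwise. Gaps of at least 2 Mb gave 64 deserts and 32257 BURs, and gaps without a gene of any type 104 and 23795. The files give no depth, so its effect on the shares could not be measured.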
